A study of Arabidopsis thaliana with 6 samples.

Results

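Pectin methylesterases were followed in sorted cells of Arabidopsis thaliana cotyledons, through a list of 10 loci of the family. A gene entered where at least 1 probe set of the array was annotated to it and to no other gene, and its probe set with the highest mean over the arrays was used. By this rule 8 of the 10 loci were measured, among 16550 genes in all. The list, and within it AT3G05620 and AT5G20860 as the pair to set against the rest, were chosen by the difference between their YFP-positive and YFP-negative values. Values of the 8 genes in that contrast are therefore descriptions, given with no p-value. Of the other 2 loci, AT2G47550 shares its probe set with AT2G47560, and AT2G45220 (PME17) was not analysed here.

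Pectin methylesterases remove methyl groups from homogalacturonan, the main pectin of the primary wall. The freed acid groups can be bridged by calcium, which stiffens the wall, or can serve as the substrate of pectate lyases and polygalacturonases, which cut the chain. Many members carry an inhibitor-like region ahead of the enzyme that subtilases remove, and separate inhibitor proteins bind the active enzyme. Sieve elements, the conducting cells of the phloem, thicken their walls and open their end walls into sieve plates as they mature.

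All 6 arrays came from 1 genotype, SEOR1pro::SEOR1-YFP, in which the promoter of the sieve element gene SEOR1 drives a YFP fusion of its own protein. Cotyledons of 6-day-old seedlings were held for 72 hours in medium with 2,4-D at 1.25 mg/L (an auxin), kinetin at 0.25 mg/L (a cytokinin) and bikinin at 10 µM (an inhibitor of GSK3-like kinases). This culture, called VISUAL, turns leaf mesophyll into vascular cells, and the controls received it too. The cells were made into protoplasts, that is, freed of their walls, and sorted by fluorescence into a YFP-positive group of 3 arrays, labelled phloem, and a YFP-negative group of 3 arrays, which the design text calls non-phloem. The labels do not state separate cultures for the replicates, so errors and p-values cover the spread among these arrays alone, and part of it may be technical. How many plant lines or how many cells stood behind an array is not given in the sources used here.

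Values are the deposited log2 values, and a difference is YFP-positive minus YFP-negative on that scale. Array medians over all probe sets ran from 2.1 to 2.9, and arrays of the same replicate number resembled each other in distribution more than arrays of different numbers did, so differences within each number are given beside the pooled ones. Of 18 phloem markers 3 were measured under a gene name, and SEOR1 was not among them. CLE45, a peptide gene of the protophloem, had differences of 2.20, 2.03 and 2.22 within numbers 1 to 3, with an adjusted p of 0.0951 in limma and of 0.0444 once the number was blocked. OPS, a regulator of protophloem differentiation, had a smaller mean difference of 0.73 (SE 1.03, adjusted p = 1), and the sucrose transporter gene SWEET11 leaned the other way at -1.25 (SE 1.62, adjusted p = 1), with 0, -0.91 and -2.84 within numbers 1 to 3. Of 10 mesophyll markers 2 were measured. The photosystem II gene PSBW lay between 7.5 and 8.0 in YFP-positive and between 8.08 and 9.40 in YFP-negative cells, and RCA, Rubisco activase, between 4.57 and 5.02 and between 5.15 and 6.06. Neither passed the test. Of 12 xylem markers 1 was measured, at a difference of -0.49, with 0, 0.81 and -2.29 within numbers 1 to 3. Of 7 epidermis and guard cell markers 3 were measured, at differences from -1.17 to -0.12. None of the xylem, epidermis or guard cell markers passed. The part of residual mesophyll, or of other cell types, in the results below was not tested.

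AT3G05620 was bright in every YFP-positive array and dim in every YFP-negative one. Its values were 10.12, 9.06 and 10.36 in YFP-positive replicates 1 to 3 and 2.28, 1.74 and 2.01 in YFP-negative replicates 1 to 3. The groups lay far apart, each YFP-negative value was under the median of its array, and each YFP-positive value was well over it. The means were 9.85 ± 0.70 (SD, n = 3) and 2.01 ± 0.27 (SD, n = 3), and the log2 difference was 7.84 (SE 0.41). Within numbers 1 to 3 the differences were 7.84, 7.32 and 8.36.

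AT5G20860 showed the same direction at a smaller size. It stood at 6.12, 4.92 and 5.48 in YFP-positive replicates 1 to 3 and at 1.35, 1.66 and 2.62 in YFP-negative replicates 1 to 3. The groups again did not overlap, and the array of YFP-negative replicate 3 held the highest of the low values. The means were 5.51 ± 0.60 (SD, n = 3) and 1.88 ± 0.66 (SD, n = 3), and the log2 difference was 3.63 (SE 0.47). Within numbers 1 to 3 it was 4.76, 3.25 and 2.86, so the gene's difference varied more between numbers than that of AT3G05620. No fold change is given for either gene, because every YFP-negative value lay under its array's median, where a log2 difference has no known size in transcript level. In RNA pooled from many cells, fewer expressing cells and less RNA per cell cannot be told apart.

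**Figure D1:**
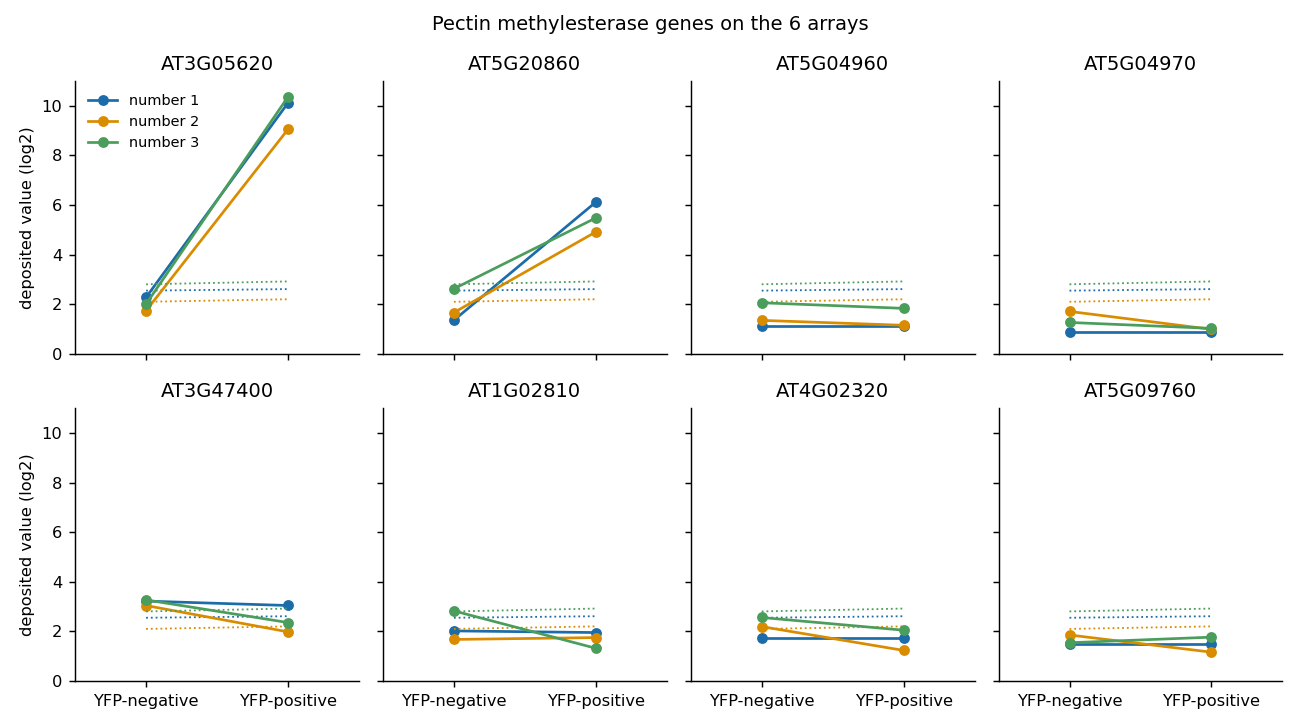
Deposited log2 value (vertical axis) of each of the 8 measured pectin methylesterase genes in YFP-negative and YFP-positive cells. Solid lines join the arrays of one replicate number and dotted lines join the medians of those arrays; AT3G05620 and AT5G20860 climb in all 3 numbers, to between 9.06 and 10.36 and between 4.92 and 6.12, while the other 6 genes stay at or under 3.27 on every array.

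The other 6 genes were at or under 3.27 on every array, and 5 of them were under the array median on all YFP-positive arrays. All 6 had small negative differences, from -0.72 to -0.14, with a median of -0.41. Their groups overlapped in every case, so none of these differences exceeded the spread between arrays in that sense. Over all genes 55.4% of differences were under 0.

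AT3G47400 had the largest of the 6, at -0.72 (SE 0.33). Its values were 3.04, 1.98 and 2.35 in YFP-positive replicates 1 to 3 and 3.22, 3.04 and 3.27 in YFP-negative replicates 1 to 3. The groups met at 3.04, the value of YFP-positive replicate 1 and, to this rounding, of YFP-negative replicate 2. It was the only one of the 6 with all YFP-negative values over the median of their arrays, and its differences within numbers 1 to 3 were -0.18, -1.06 and -0.91.

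AT1G02810 differed by -0.50 (SE 0.38). It stood at 1.95, 1.75 and 1.32 in YFP-positive and at 2.02, 1.67 and 2.82 in YFP-negative replicates 1 to 3. Its difference lay in number 3 (-1.51), with -0.07 and 0.08 in numbers 1 and 2.

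AT4G02320 differed by -0.49 (SE 0.35), with 1.73, 1.23 and 2.04 in YFP-positive against 1.73, 2.19 and 2.56 in YFP-negative replicates 1 to 3. One YFP-negative value, that of replicate 2, was over the median of its array. The next protein-coding gene in the RefSeq order of assembly TAIR10.1 is AT4G02330 (ATPMEPCRB), another pectin methylesterase, whose difference was -0.95 (SE 0.82) and came mainly from a value of 4.09 on YFP-negative replicate 3.

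AT5G04960 and AT5G04970 also follow each other on the chromosome, and every value of both was under the median of its array. AT5G04960 stood at 1.13, 1.15 and 1.83 in YFP-positive and at 1.13, 1.35 and 2.06 in YFP-negative replicates 1 to 3, a difference of -0.14 (SE 0.36). AT5G04970 stood at 0.89, 0.99 and 1.02 against 0.89, 1.71 and 1.26, a difference of -0.32 (SE 0.29). AT5G09760, dim on all arrays as well, stood at 1.47, 1.16 and 1.76 against 1.47, 1.85 and 1.54, a difference of -0.16 (SE 0.27).

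In 4 of these 6 genes, AT5G04960, AT5G04970, AT4G02320 and AT5G09760, the arrays of number 1 held exactly equal values (tolerance 0), as they did for 47.8% of all genes. The value of AT5G04960 there, 1.13, was carried by 3220 probe sets on YFP-negative replicate 1 and by 3178 on YFP-positive replicate 1. That of AT5G04970, 0.89, was carried by 1798 and 1792. Number 1 thus gives no measured difference for these 4 genes. Over all genes, 7907 had exactly equal values in number 1, against 1118 in number 2 and 1083 in number 3. None of the 12 values of AT3G05620 and AT5G20860 was shared with another probe set of the same array.

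Set against the median of the other 6 genes, AT3G05620 lay 8.24 higher on the log2 scale and AT5G20860 4.03 higher. Within numbers 1 to 3 the gap was 7.84, 8.02 and 8.73 for AT3G05620 and 4.76, 3.96 and 3.23 for AT5G20860. In number 1 the median of the 6 genes was 0, from the equal values above. The gap there is therefore only the gene's own difference. Within number 3, which held the highest value among the 6 genes, that value was a difference of 0.23, against 2.86 for AT5G20860. The pair was chosen on this contrast, which fixes the sign of the gaps, so they carry no test.

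With limma fitted over all genes, 1.08% of genes passed an adjusted p of 0.05. Of all genes 0.858% passed as higher in YFP-positive cells and 0.224% as lower. AT3G05620 and AT5G20860 were the 2 of the 8 genes called, and since they were listed for that difference nothing is read from the count. A fit with the replicate number as block term gave calls for 0.544% of all genes and for 1 of the 8, AT3G05620. Groups without overlap were found for 9.30% of all genes (4.96% higher, 4.34% lower) and for these 2 of the 8, both higher.

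The rest of the family gives a wider frame. The gene lists used from here on were set down by locus from general knowledge of the families, and no product names were at hand to check their membership, on which every count and median of a list rests. Of 57 other pectin methylesterase loci 42 were measured, and 0 passed the test in limma, without or with the replicate block. At an unadjusted p under 0.05 there were 4 in limma, 3 higher and 1 lower, where 7.96% of all genes had such a p, and 5 with the block, where 13.8% did. Their median difference was -0.11, against -0.04 over all genes, and 36 of the 42 differed by less than 1. For 31 of the 42 all values lay under the medians of their arrays, against 36.6% of all genes.

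AT5G53370 (PMEPCRF) had the smallest p among the 42 in limma without the block. It stood at 4.78, 3.39 and 4.08 in YFP-positive and at 5.34, 5.42 and 6.24 in YFP-negative replicates 1 to 3. The groups did not overlap, and the difference was -1.59 (SE 0.45) with an adjusted p of 0.289 in limma and of 0.222 with the block. All 6 values were over the medians of their arrays.

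Groups also did not overlap for 3 genes with higher YFP-positive values, AT3G43270, AT4G03930 and AT3G49220, which were picked out after their values were seen. Over all genes 4.96% had groups without overlap and higher, and 4.34% without overlap and lower. Nothing is therefore read from the 3 and 1 of the 42. AT3G43270 stood at 8.06, 7.18 and 7.91 in YFP-positive and at 6.35, 2.79 and 6.08 in YFP-negative replicates 1 to 3. The difference was 2.64 (SE 0.97), which did not pass (adjusted p = 0.508 in limma), and was 4.38 within number 2 against 1.71 and 1.83 within numbers 1 and 3.

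AT4G03930 stood at 2.84, 2.60 and 6.12 in YFP-positive and at 1.57, 1.07 and 1.37 in YFP-negative replicates 1 to 3. The difference was 2.52 (SE 0.95, adjusted p = 0.529 in limma), and the value of YFP-positive replicate 3 stood well apart from the rest. AT3G49220 was over the array median on all 6 arrays, at 6.23, 6.57 and 7.05 against 4.26, 5.26 and 6.15. Its difference was 1.40 (SE 0.53), and 1.98, 1.31 and 0.90 within numbers 1 to 3. The adjusted p was 0.533 in limma and 0.142 with the block. With the block AT3G49220 had the smallest p among the other pectin methylesterases, and it did not pass.

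**Figure D2:**
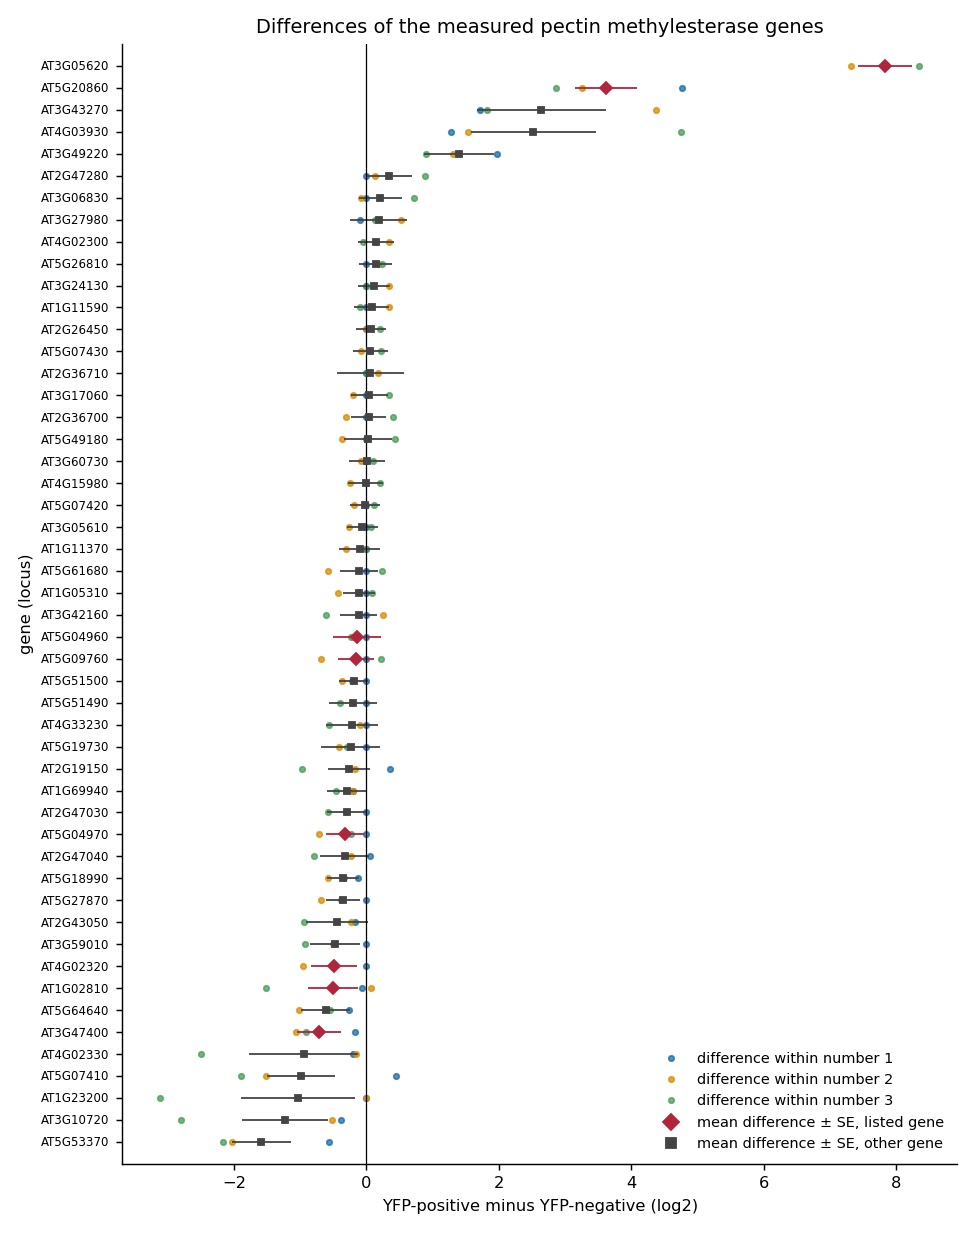
Difference between YFP-positive and YFP-negative cells (horizontal axis, log2) for the 50 measured pectin methylesterase genes, ordered by the mean difference. Diamonds (the 8 listed genes) and squares (the 42 others) are means with bars of 1 SE from limma, and small dots are the differences within numbers 1 to 3; AT3G05620 at 7.84 and AT5G20860 at 3.63 lie at the upper end, and 42 of the 50 genes lie within 1 of 0.

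The gene next to AT3G05620 in the RefSeq order is AT3G05610, also a pectin methylesterase. It stood at 1.13, 0.90 and 1.32 in YFP-positive and at 1.13, 1.16 and 1.25 in YFP-negative replicates 1 to 3, and its difference was -0.06 (SE 0.24, adjusted p = 1 in limma). Every value was under its array's median in both groups, unlike the YFP-positive values of AT3G05620. VGD1 and PPME1, pectin methylesterases known from pollen tubes and named here for that role, were under the array medians throughout, with differences of -0.33 and -0.29.

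Among the genes that act on the same polymer, 1 pectate lyase was higher in YFP-positive cells too. AT5G04310, of the class that cleaves de-esterified homogalacturonan, stood at 9.54, 7.94 and 8.84 in YFP-positive and at 4.31, 3.80 and 2.95 in YFP-negative replicates 1 to 3. The groups were widely separated, and all 6 values were over the medians of their arrays. The difference was 5.09 (SE 0.54) with an adjusted p of 0.0179 in limma, and 5.23, 4.14 and 5.89 within numbers 1 to 3. The replicate block moved that p to 0.0504. It was 0.0673 without YFP-negative replicate 3, 0.0522 without YFP-positive replicate 1 and 0.117 without YFP-positive replicate 3, and over the 15 alternatives it ran from 0.00159 to 0.358. AT5G04310 passed in 8 of the 15.

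It was the 1 pectate lyase of 23 measured that passed, against 1.08% of all genes, and the list had a median of 0.03. AT5G63180, another pectate lyase, had the largest negative difference of the list at -2.43 (SE 0.65), with an adjusted p of 0.251 in limma. It is named after its values were seen. Its groups did not overlap, with 5.16, 3.84 and 3.30 in YFP-positive against 6.46, 5.65 and 7.49 in YFP-negative replicates 1 to 3.

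Of 58 polygalacturonases, the other enzymes that cut the chain, 0 passed in limma, with 4 at an unadjusted p under 0.05, and 0 passed with the block, with 6. The background for unadjusted counts, here and in the lists that follow, was 7.96% of the whole table without the block and 13.8% with it. Nothing is therefore read from the rise from 4 to 6. The polygalacturonases had a median of -0.12. AT2G43870 had the smallest p in limma without the block. It stood at 4.03, 2.21 and 2.00 in YFP-positive against 5.03, 3.86 and 6.08 in YFP-negative replicates 1 to 3. Its difference was -2.24 (SE 0.76), with an adjusted p of 0.426, and its groups overlapped.

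Of 45 genes of the invertase and pectin methylesterase inhibitor family, 0 passed in limma, with 3 at an unadjusted p under 0.05, and 0 passed with the block, also with 3. Their median was -0.15, and 34 of the 45 had negative differences, where 55.4% of all genes did. For 30 of the 45 all values lay under the array medians, against 36.6% of all genes. In number 1, 31 of the 45 held exactly equal values, against 47.8% of all genes, which limits what the signs can tell. AT1G14890 had the smallest p. It stood at 6.54, 5.51 and 7.40 in YFP-positive and at 8.39, 8.70 and 9.70 in YFP-negative replicates 1 to 3. The difference was -2.45 (SE 0.58), with an adjusted p of 0.184 in limma and of 0.0865 with the block. The groups did not overlap, and it passed in 1 of the 15 alternatives, median centring.

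Of 7 subtilases that have been linked to the processing of pectin methylesterases, 0 passed in limma, with 1 at an unadjusted p under 0.05, and the same counts with the block. SBT3.5, known to process PME17, had that p. It stood at 5.98, 4.77 and 4.64 in YFP-positive and at 7.05, 6.45 and 6.72 in YFP-negative replicates 1 to 3. The groups did not overlap, and the difference was -1.61 (SE 0.43) with an adjusted p of 0.249. S1P, the subtilase that releases such proteins in the Golgi, differed by 0.12 (SE 0.34), and all its values were under the array medians.

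Of 6 pectin acetylesterases, which remove acetyl groups from the same polymer, 0 passed in limma and 1 had an unadjusted p under 0.05, without and with the block. AT3G09405 stood at 6.57, 6.02 and 4.63 in YFP-positive and at 7.94, 7.48 and 7.11 in YFP-negative replicates 1 to 3, a difference of -1.77 (SE 0.55, adjusted p = 0.347). Of 8 wall-sensing receptor genes 2 were measured, and 0 passed in limma, with 0 at an unadjusted p under 0.05 and 1 with the block. THE1 differed by -0.86 and FER, a receptor that binds pectin, by -0.22. Of 25 genes of homogalacturonan synthesis 1 was measured, AT3G49720, at a difference of 0.35 (SE 0.94), so these last 2 lists cannot speak for sensing or synthesis.

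**Figure D3:**
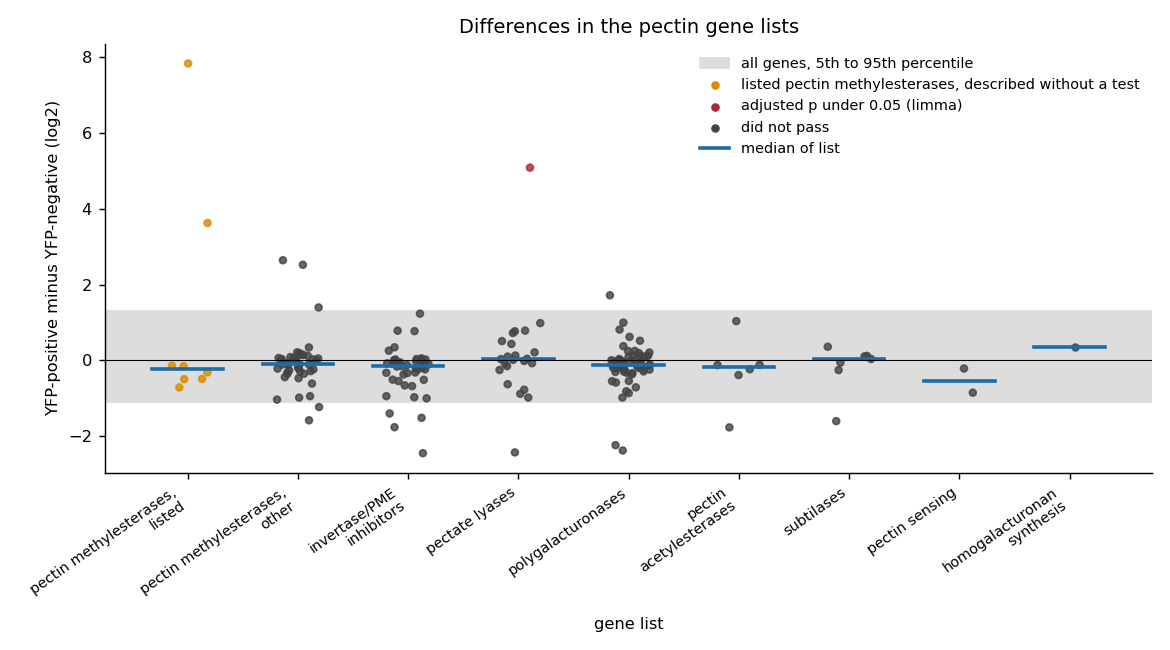
Difference between YFP-positive and YFP-negative cells (vertical axis, log2) for each measured gene of the pectin lists (horizontal axis). The blue bar is the median of each list and the grey band runs from the 5th to the 95th percentile of all genes, -1.11 to 1.30. The medians of the lists of 6 or more genes lie between -0.24 and 0.03. AT5G04310 is the 1 gene outside the 8 listed pectin methylesterases that passed in limma without the block.

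The genes most like each of the pair were found by the root mean square distance of log2 values over the 6 arrays, after each gene was centred on its own mean. For AT3G05620 the 5 nearest were AT5G67040, AT4G05430, AT4G05220, AT1G61760 and AT3G01940, at distances of 0.30 to 0.51. Their differences ran from 7.59 to 8.54, and all but AT3G01940 were under the array medians on every YFP-negative array. For AT5G20860 the 5 nearest were AT1G13050, AT4G18530, AT1G23530, AT2G18890 and AT3G01860, at distances of 0.30 to 0.36, with differences from 3.41 to 3.78.

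Unlike AT5G20860, 4 of its 5 nearest genes were over the array medians in both groups. Only AT2G18890 shared its low YFP-negative values, at 1.47, 1.62 and 2.53 in replicates 1 to 3. The pair stood 2.17 apart by this measure. By nearness AT5G20860 ranked 171 for AT3G05620, and AT3G05620 ranked 14115 for AT5G20860. AT5G04310 stood 1.45 from AT3G05620 (rank 57) and 1.07 from AT5G20860 (rank 244), so it is not among the nearest genes of either. The measure is a description over 6 arrays, and it depends mostly on the size of the step between groups.

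**Figure D4:**
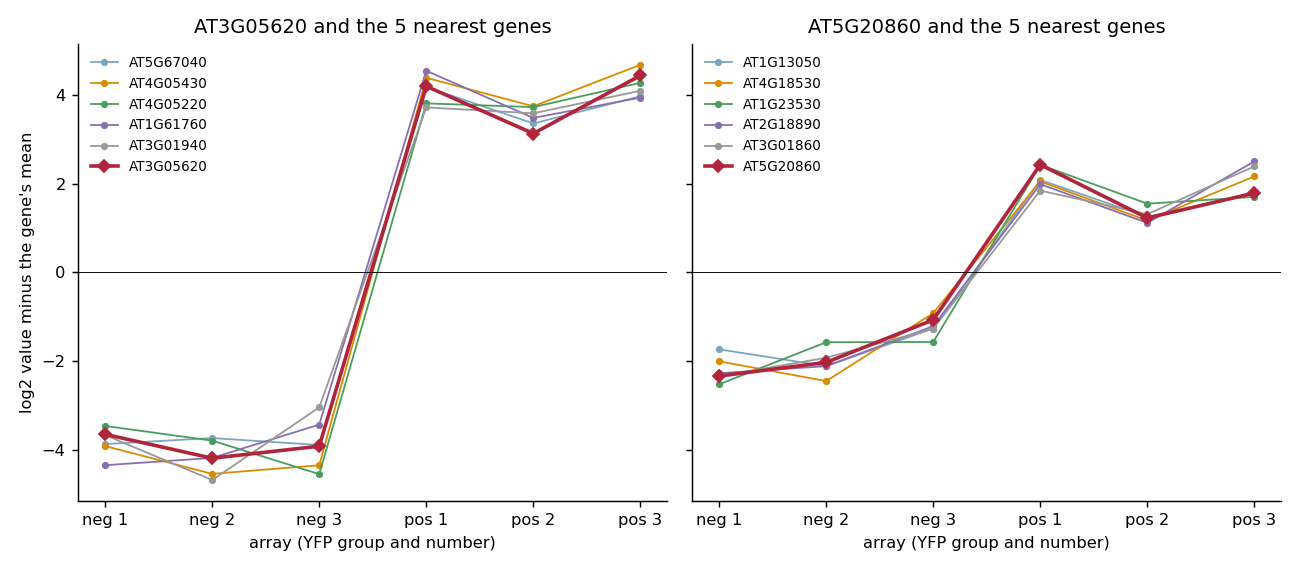
Log2 value minus the gene's own mean (vertical axis) on the 6 arrays (horizontal axis) for AT3G05620, AT5G20860 and the 5 genes nearest to each. Lines only join the values of one gene; the step between groups is 7.59 to 8.54 for the genes on the left and 3.41 to 3.78 for those on the right.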

How the data were processed

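Log2 values in 1 table were deposited by the authors, who used RMA according to the submitters' processing notes. The sources used here give neither its version nor its settings. That the scale is log2 was judged from the range, -0.11 to 13.39. Of 38408 probe sets 16722 were annotated to exactly 1 gene, 759 to several and 20927 are unnamed here, and 16411 of 16550 gene IDs matched RefSeq (assembly TAIR10.1). No array build is named, so no coordinates are printed, and protein and promoter sequences were not used here. Differences were fitted with limma 3.58.1 in R 4.3.3 (lmFit, eBayes) on the deposited values, two-sided. P-values were adjusted by Benjamini-Hochberg over all genes, with a threshold of 0.05; the script was tested on simulated data. The number of arrays, 3 per group, limits the precision.

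The members and lists were chosen with earlier results of these data known. From each list every gene past the threshold was named, at most 5, or where none passed the one with the smallest p. Both used limma without the block. Members, their list neighbours and the 5 nearest genes were named too. Replicate numbers come from the titles. Across genes, the deviations of same-numbered arrays from their group means correlated at 0.66, 0.61 and 0.49, so the numbers were taken to pair the arrays. The other pairs correlated at -0.47 to -0.19. Centring on the group means forces negative values among the other pairs once same-numbered arrays correlate positively, so these are no separate evidence. All the correlations are over all genes, exactly equal values included. Whether the numbers mark biological pairs or shared processing was not tested. Alternatives were quantile normalization, median centring, the replicate block, leaving out 1 array or both arrays of a number, a filter on dim genes (over the array median on at least 3 arrays), an intensity trend and the mean of probe sets. A planned comparison of protein sequences was not run.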

Additional observations from a re-analysis of the deposited data

How the results depend on the processing

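Over the 13 alternatives run on them, AT3G05620 lay 7.93 to 8.53 above the median of the other genes and AT5G20860 3.66 to 4.36. When 1 array was left out these gaps were 7.94 to 8.53 and 3.72 to 4.24. Their sign was fixed by the choice of the pair. Median centring, the replicate block and the mean of probe sets cannot change the gaps, which stayed at 8.24 and 4.03. Fits that leave out arrays reuse the remaining ones. The pooled difference of AT3G05620 ran from 7.58 to 8.23 and that of AT5G20860 from 3.06 to 4.01. AT1G02810, AT5G04960 and AT5G09760 crossed 0 in 1 alternative each, up to 0.00, 0.13 and 0.11, so their direction is not settled. The number of listed genes called by limma fell from 2 to 1 with the replicate block, to 1 whenever 1 array was left out and to 1 without both arrays of number 2, AT3G05620 each time. Without both arrays of number 1 or of number 3 it was 0, where limma called 0 of all genes (1257 and 823 at an unadjusted p under 0.05). The pair was listed for this same contrast, so nothing is read from these calls. Both genes entered the filter on dim genes only through their YFP-positive arrays.

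Over the whole table limma called 179 genes, 79.3% of them higher. The count was 343 with the filter on dim genes, which tested 8832 genes in place of 16550. A gene high in only 1 group can pass that filter, since 3 arrays suffice. Over all genes the count was 307 with the intensity trend and 384 with median centring (69.0% higher). With the replicate block 90 were called (63 of them among the 179), and with 1 array left out 37 to 164. Among the pectate lyases the 1 call became 0 with the replicate block (4 at an unadjusted p under 0.05) and without both arrays of number 1, 2 or 3 (2, 4 and 1), and ranged from 0 to 1 with 1 array left out. Median centring gave 1 call among the inhibitors, AT1G14890, lower. The other pectin methylesterases kept 0 calls in all 15 alternatives. The block changed no other call in the pectin lists. Dim values limit the size of any difference against the YFP-negative group.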

Other observations

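The probe set shared by AT2G47550, a pectin methylesterase, and AT2G47560 was over the median of every array. It stood at 8.10, 5.86 and 3.20 in YFP-positive and at 8.85, 7.33 and 6.30 in YFP-negative replicates 1 to 3. The YFP-positive value was the lower one in each number, by differences of -0.75, -1.47 and -3.10, and the groups overlapped. Which of the 2 genes the signal belongs to cannot be told from the probe set.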
